A study of Homo sapiens with 9 samples.

Results

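The aminoacyl-tRNA synthetases of human adrenocortical H295R cells were examined in normal growth, in serum starvation and in serum starvation with metformin. The members were chosen by name, as 35 listed synthetase genes, and each was read from the brightest probe set that the array annotation assigns to it alone. All 35 were found among 18417 genes with such a probe set. They comprise 19 cytosolic enzymes, whose symbols end in 1 or are FARSA and FARSB, and 16 mitochondrial enzymes, whose symbols end in 2. H295R is an established line derived from a human adrenocortical carcinoma, so every array represents the same line. After 24 h in growth medium the cells were kept for 48 h in growth medium (normal growth), in medium without serum (serum starvation), or in serum-free medium with 10 mM metformin (starvation with metformin). Each condition was hybridised on 3 whole-transcript arrays, labelled replicates A, B and C, which gave 9 arrays. The study's methods leave insulin, transferrin and selenium out of the starvation medium as well, so loss of serum and loss of these supplements cannot be told apart.

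Aminoacyl-tRNA synthetases join each amino acid to its tRNA and thereby supply the ribosome with charged tRNA. Cytosolic and mitochondrial ribosomes are served by largely separate sets of enzymes, all encoded in the nucleus. GARS1 and KARS1 are exceptions, since each gene makes a cytosolic and a mitochondrial form, and they are counted here with the cytosolic enzymes as their names end in 1. In the cytosol EPRS1, IARS1, KARS1, LARS1, MARS1, QARS1 and RARS1 form a multi-synthetase complex with scaffold proteins such as AIMP1, while the other enzymes act outside it. Several cytosolic synthetase genes are known targets of ATF4, the transcription factor of the amino acid response, which binds C/EBP-ATF response elements (CARE). Metformin is a biguanide drug that inhibits complex I of the mitochondrial respiratory chain.

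Promoter windows of 300 bases, from 250 before to 50 after an annotated start, were taken from RefSeq (build GRCh38.p14) and were given for 30 of the 35 genes. LARS1, VARS1, YARS1, AARS2 and VARS2 were not analysed for sequence. The CARE core was searched as TGATGNAA on both strands. It was present in 7 of 16 cytosolic genes (43.8%), in 1 of 14 mitochondrial genes (7.14%), and in 4.46% of the 27305 genes with a window. Among the 15843 protein-coding genes with a window the share was 3.6%. Counted by windows, 3.62% of 35116 contained it, as did 7 of 21 cytosolic (33.3%) and 1 of 18 mitochondrial windows (5.56%). The 30 bases around each match are printed 5′ to 3′ on the strand of the gene, because these genes include the member with the largest rise, and capitals mark the match. The match lay on the strand opposite to the gene in 6 of the 7 cytosolic genes, so that it reads as TTNCATCA there.
AARS1 (chr16:70289675-70289704, minus strand): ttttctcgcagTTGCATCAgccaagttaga
CARS1 (chr11:3057407-3057436, minus strand): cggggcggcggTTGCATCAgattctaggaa
GARS1 (chr7:30594834-30594863, plus strand): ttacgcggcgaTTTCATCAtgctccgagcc
IARS1 (chr9:92293692-92293721, minus strand): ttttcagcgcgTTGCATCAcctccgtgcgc
MARS1 (chr12:57488053-57488082, plus strand): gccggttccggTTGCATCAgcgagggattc
NARS1 (chr18:57621804-57621833, minus strand): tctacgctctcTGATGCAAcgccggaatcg
TARS1 (chr5:33440956-33440985, plus strand): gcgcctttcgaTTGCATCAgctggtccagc
YARS2 (chr12:32756076-32756105, minus strand): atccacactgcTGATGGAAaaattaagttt

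The letters TTGCATCA were shared by AARS1, CARS1, IARS1, MARS1 and TARS1, while NARS1 held the same letters on its own strand and GARS1 differed at the free position. The first base of the match lay 187 bases before the start in AARS1 and 197 before it in YARS2, whereas in CARS1, IARS1, MARS1 and GARS1 it lay 2 to 33 bases before the start. In TARS1 and NARS1 it lay 3 and 15 bases after the start. CARS1, GARS1 and TARS1 each had a further window without a match, and in GARS1 and TARS1 the start next to the match is the inner of the annotated starts, so the match lies inside the gene as counted from its outer start. For comparison, the core of the NRF1 site, a motif frequent in genes of mitochondrial proteins, was searched on both strands. It was found in 3 of 16 cytosolic genes, FARSB, SARS1 and TARS1, and in 3 of 14 mitochondrial genes, IARS2, MARS2 and PARS2. The share was 9.67% among protein-coding genes and 6.98% among all genes with a window. A match is a description of the letters only.

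The deposited values are log2 signals, and the medians of the 9 arrays lay between 6.04 and 6.16. No member fell below its array's median on any array. Values between arrays correlated at 0.984 or higher over all probe sets, with the lowest correlation among replicates in starvation with metformin (0.990, replicates A and C). Adrenal cortex markers differed in level. The steroidogenic regulator NR5A1 averaged 10.90 ± 0.04 in normal growth, 10.78 ± 0.03 in starvation and 10.32 ± 0.06 with metformin (mean ± SD, n = 3 arrays). MC2R and CYP11B1 averaged 5.13 and 5.86 in normal growth, below the array medians, and HSD3B2 averaged 9.09 there and 5.77 with metformin. Some markers of other kinds lay above the medians, such as FAP at 8.19 and EPCAM at 7.60 in normal growth. Of 10 measured adrenal markers, 3 fell with metformin relative to starvation and 1, MC2R, rose, against 2.89% and 3.14% of all genes. None of the 10 fibroblast, 8 endothelial, 7 immune and 9 epithelial markers passed the test in that comparison. The part of the change in adrenal markers in the synthetase values was not tested. These are bulk RNA samples, in which fewer cells of a kind and less RNA per cell cannot be told apart. Levels are compared between conditions for a gene and not between genes, since probe sets differ in brightness.

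**Figure D1:**
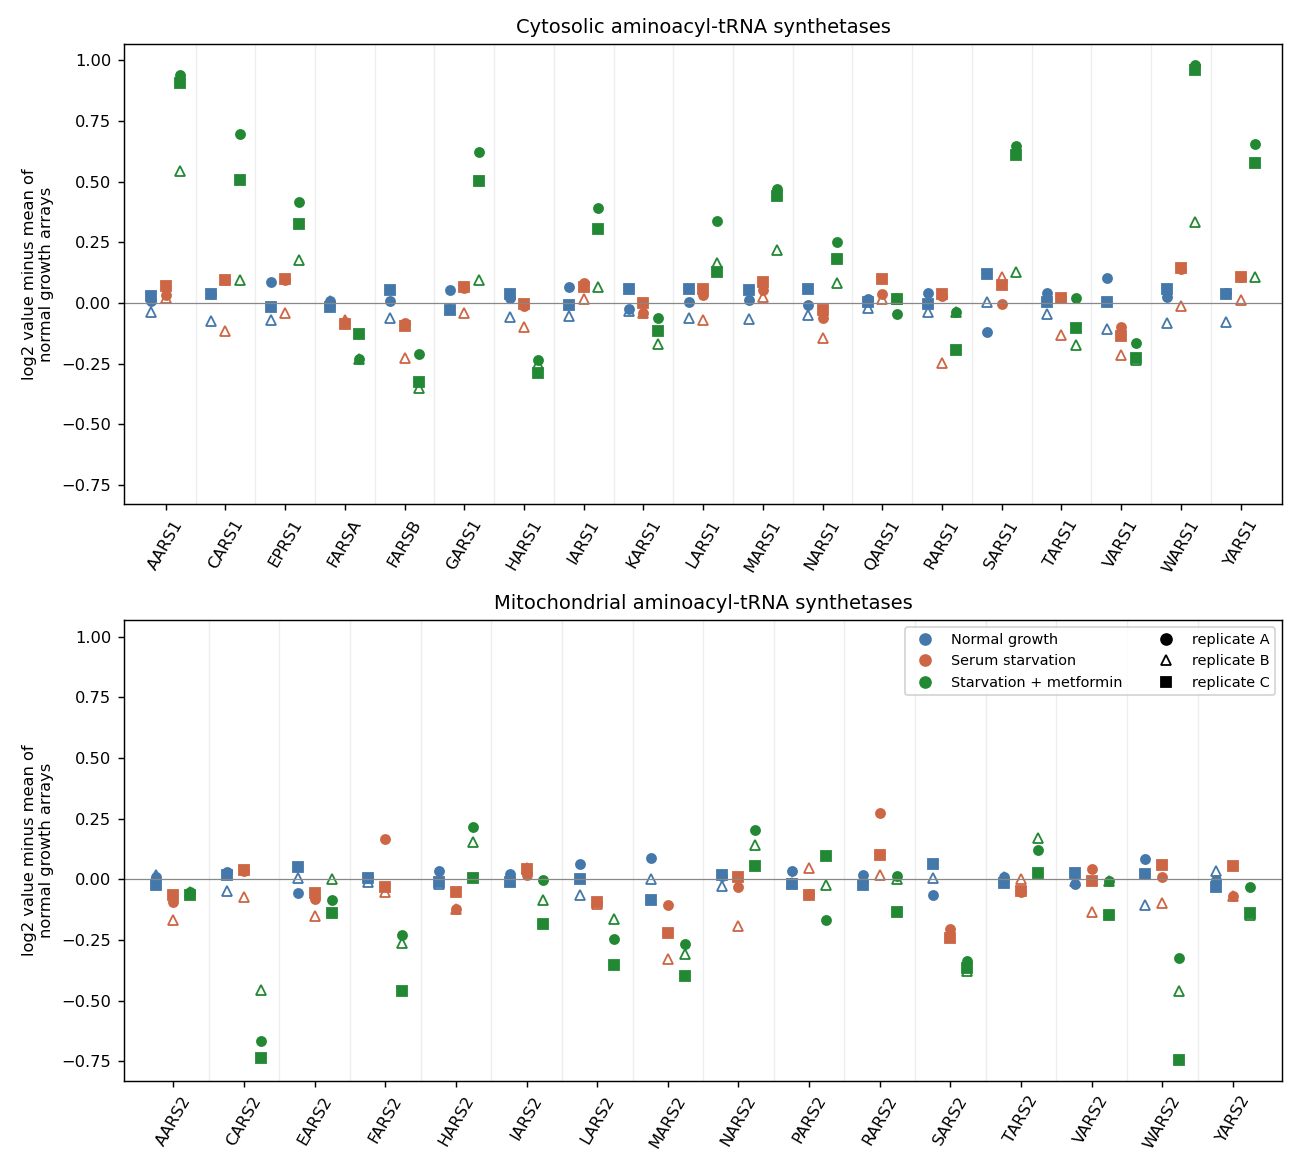
Signal of each synthetase on each array, as log2 value minus the mean of the 3 normal growth arrays (y axis), for the 19 cytosolic genes (top) and the 16 mitochondrial genes (bottom). Colours mark the condition and symbols the replicate. In starvation with metformin, replicates A and C of WARS1 and AARS1 lie farthest above normal growth, while replicate B (open triangle) lies nearer to it, and CARS2 and WARS2 are the lowest mitochondrial genes.

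The comparison of starvation with metformin against starvation alone asks what metformin changes in cells that are already without serum. The medians of the cytosolic and mitochondrial sets lay on opposite sides of 0. The median log2 change of the 19 cytosolic genes was 0.21, that of the 16 mitochondrial genes was -0.09, and that of all 18417 genes was -0.03. AARS1 rose and CARS2 fell past the threshold of limma (Benjamini-Hochberg adjusted p under 0.05 over all probe sets), and neither reached 2-fold, which 0.179% of all genes did upward and 0.228% downward among those called. The call rates among all genes were 3.14% higher and 2.89% lower, against 1 higher of 19 cytosolic genes and 1 lower of 16 mitochondrial genes. A larger share of the cytosolic genes was separated between the groups than passed this test. In 8 of 19 every metformin array lay above every starved array, where the same held for 15.7% of all genes, and 3 of 19 lay entirely below, against 15.2%. Among the mitochondrial genes 3 of 16 lay entirely above and 7 of 16 entirely below. With unadjusted p-values below 0.05, 10 cytosolic genes were higher and 1 lower, and 2 mitochondrial genes were higher and 4 lower, where 12.3% and 11.3% of all genes met this. By sign alone, 11 of 19 cytosolic and 5 of 16 mitochondrial genes were above 0, as were 43.3% of all genes, and the others were below 0 (56.6% of all genes).

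AARS1, which charges tRNA with alanine, had log2 signals of 10.79, 10.78 and 10.83 on the starved arrays and of 11.69, 11.30 and 11.67 on the metformin arrays. The normal growth arrays were at 10.77, 10.72 and 10.78. The metformin arrays therefore lay above all 6 others, with replicate B the lowest of them. The rise over starvation was 0.76 ± 0.11 on the log2 scale (estimate ± SE), or 1.69-fold, with an adjusted p of 0.029 from limma. Over the 16 alternatives run the adjusted p ranged from 0.00359 to 0.133 and was under 0.05 in 9, and among the single arrays left out the call was lost without metformin replicate A or C and without any 1 of the starved arrays.

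WARS1, the tryptophanyl enzyme, which is also known as an interferon-induced gene, was at 10.02, 9.87 and 10.02 in starvation and at 10.86, 10.21 and 10.84 with metformin. The groups did not overlap, but the SD among metformin arrays was 0.37 and the difference of 0.67 ± 0.19 (1.59-fold) did not pass, at an adjusted p of 0.115. SARS1, the seryl enzyme, had starved values of 10.41, 10.52 and 10.49 and metformin values of 11.06, 10.54 and 11.03. Replicate B lay barely above the highest starved array, and the difference of 0.40 ± 0.15 had an adjusted p of 0.208.

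MARS1, the methionyl enzyme of the multi-synthetase complex, was at 10.63, 10.60 and 10.66 in starvation and at 11.05, 10.79 and 11.02 with metformin. The groups were apart, and the difference of 0.32 ± 0.08 had an adjusted p of 0.0959 from limma. NARS1, the asparaginyl enzyme, had values of 11.29, 11.20 and 11.32 against 11.60, 11.43 and 11.53. It was also separated, at a difference of 0.25 ± 0.07 and an adjusted p of 0.112. GARS1, the glycyl enzyme of both compartments, EPRS1, which charges glutamate and proline, and LARS1, the leucyl enzyme, were separated with differences of 0.38, 0.25 and 0.21 and adjusted p of 0.215, 0.165 and 0.224. CARS1 and YARS1, the cysteinyl and tyrosyl enzymes, differed by 0.41 and 0.37, yet their groups overlapped because metformin replicate B was no higher than the highest starved array.

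Replicate B of the metformin group stood apart from A and C in the cytosolic genes. Over all probe sets it did not, since it correlated at 0.995 with A and 0.993 with C, against 0.990 between A and C. Over the mean of the starved arrays, the median of the 19 cytosolic genes was 0.33 in replicate A, 0.03 in B and 0.25 in C. Replicate B was the lowest metformin array for 15 of the 19, and it was also the lowest array for 16 of 19 in normal growth and for 16 of 19 in starvation. The 16 mitochondrial genes had medians of -0.04, -0.08 and -0.13 in A, B and C, and their lowest metformin array was C for 13 of 16. Because replicate B was singled out by its low values in these same genes, higher estimates without it follow from that choice. Such estimates add no support to the result. Without metformin replicate B, limma called AARS1, GARS1, SARS1, WARS1 and YARS1 higher than in starvation, so that the cytosolic count was 5 in place of 1, and CARS2 was still lower. Among all 18417 genes, 291 were then called higher and 282 lower, against 578 and 532 with no array left out. In that fit the difference was 0.88 for AARS1 (adjusted p = 0.0246), 0.88 for WARS1 (adjusted p = 0.0281), 0.57 for SARS1 (adjusted p = 0.0371), 0.54 for YARS1 (adjusted p = 0.0419) and 0.53 for GARS1 (adjusted p = 0.0492). The median change of the cytosolic genes was then 0.29, against 0.21 with no array left out. Without metformin replicate A this median was instead lower than 0.21. Leaving out a starved array, or metformin replicate A, removed the calls of all genes in this comparison, and without metformin replicate C the call of AARS1 was lost while that of CARS2 remained.

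Cytosolic genes that lay entirely lower with metformin were HARS1, FARSA and KARS1. HARS1, the histidyl enzyme, was at 10.52, 10.43 and 10.52 in starvation and at 10.29, 10.28 and 10.24 with metformin, with limma estimating a difference of -0.22 ± 0.06 (adjusted p = 0.093). Its metformin arrays agreed closely, and replicate B was in the middle of them. FARSA and FARSB, the catalytic and the other subunit of the phenylalanyl enzyme, differed by -0.12 and -0.16, with overlap for FARSB. KARS1, the lysyl enzyme, differed by -0.09, while QARS1, RARS1, TARS1 and VARS1 lay between -0.06 and -0.03 with overlapping groups. IARS1 differed by 0.20, and its groups overlapped as well.

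By place in the cell, the 7 enzymes of the multi-synthetase complex had a median of 0.20 and the other 12 cytosolic enzymes one of 0.31. In the complex, 3 were entirely higher (EPRS1, LARS1 and MARS1) and 1 entirely lower (KARS1), where 15.7% and 15.2% of all genes were. Outside it, 5 were entirely higher (AARS1, GARS1, NARS1, SARS1 and WARS1) and 2 entirely lower (FARSA and HARS1). AIMP1, the scaffold protein that was measured, differed by 0.17 with an adjusted p of 0.16.

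Among the mitochondrial enzymes CARS2, which charges cysteine, had the largest decrease. It was at 10.62, 10.52 and 10.62 in starvation and at 9.92, 10.13 and 9.85 with metformin, while normal growth gave 10.62, 10.54 and 10.61. All metformin arrays lay below the other 6, and replicate B was the least reduced. The change was -0.62 ± 0.09, or 1.54-fold lower, with an adjusted p of 0.0258 from limma. Over the alternatives the adjusted p ranged from 0.00313 to 0.131 and was under 0.05 in 10, and among the single arrays left out the call was lost without metformin replicate A and without any 1 of the starved arrays. WARS2, the tryptophanyl enzyme, went from 7.81, 7.70 and 7.86 to 7.47, 7.34 and 7.05. The groups were apart, and the difference of -0.50 ± 0.12 had an adjusted p of 0.0802. FARS2, the phenylalanyl enzyme, went from 8.60, 8.38 and 8.40 to 8.20, 8.17 and 7.97, a difference of -0.35 ± 0.10 with an adjusted p of 0.114. IARS2, LARS2, RARS2 and SARS2 were also entirely lower, by 0.13 to 0.17 on the log2 scale, and none passed.

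HARS2, NARS2 and TARS2 were the mitochondrial genes that lay entirely higher with metformin. HARS2 went from 8.23, 8.23 and 8.30 in starvation to 8.57, 8.50 and 8.36, a difference of 0.22 ± 0.07 (adjusted p = 0.156). NARS2 and TARS2 differed by 0.20 and 0.14, with adjusted p of 0.22 and 0.285. The remaining 6, AARS2, EARS2, MARS2, PARS2, VARS2 and YARS2, lay between -0.11 and 0.05 with overlapping groups.

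**Figure D2:**
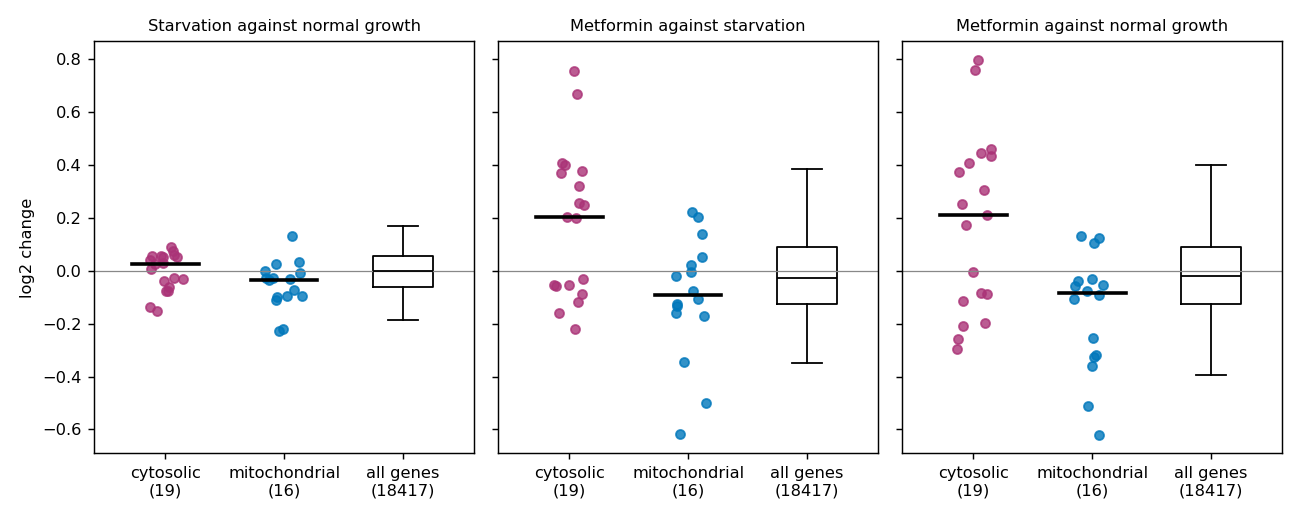
Log2 change of each cytosolic (19) and mitochondrial (16) synthetase in the 3 comparisons, with the median of each set as a line, beside all 18417 genes as a box of the quartiles with whiskers from the 5th to the 95th percentile. Against starvation the cytosolic median with metformin is 0.21 and the mitochondrial median is -0.09, whereas in starvation against normal growth the medians are 0.03 and -0.03, the former turning to -0.01 when starved replicate A, starved replicate C or normal growth replicate B is left out.

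The cytosolic and the mitochondrial enzyme of the same amino acid were then compared within each array, in 17 pairs. The difference of the paired log2 values changed upward with metformin, without overlap between the groups, in 11 pairs, downward in 1 and with overlap in 5 relative to starvation, and in 10, 2 and 5 relative to normal growth. In starvation against normal growth the counts were 4, 2 and 11. The share of separated differences among other pairs of genes was not computed. Among single genes 15.7% lay entirely higher and 15.2% entirely lower with metformin than in starvation. Relative to starvation, the median change of the paired difference with metformin was 0.26. It was largest for tryptophan (WARS1 minus WARS2, 1.17 ± 0.26), cysteine (CARS1 minus CARS2, 1.03 ± 0.25), alanine (AARS1 minus AARS2, 0.70 ± 0.13) and serine (SARS1 minus SARS2, 0.53 ± 0.16). For tryptophan and cysteine the estimates of the members had opposite signs, although of these 4 genes CARS2 alone passed the test, and for alanine AARS2 differed by 0.05. Asparagine differed from these, since NARS1 and NARS2 had estimates of 0.25 and 0.20 and their difference changed by 0.05 ± 0.06. In phenylalanine the estimates were -0.12, -0.16 and -0.35 for FARSA, FARSB and FARS2, and none passed. With 3 arrays against 3, the exact two-sided permutation test cannot go below p = 0.1, which every separated pair had. Adjusted over the 17 pairs this was 0.142 in both comparisons with metformin and 0.283 in starvation against normal growth. EPRS1 enters the glutamate and the proline pair and FARS2 enters both phenylalanine pairs, so these pairs share values.

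**Figure D3:**
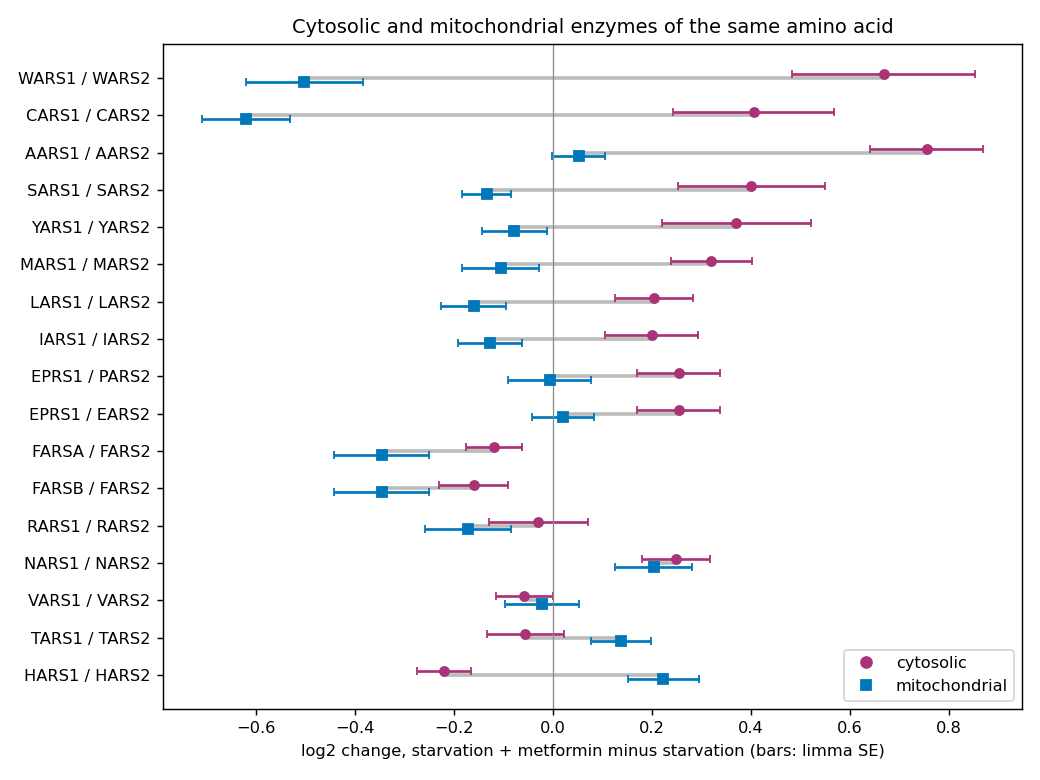
Log2 change in starvation with metformin against starvation for the cytosolic (circle) and the mitochondrial (square) enzyme of each of the 17 pairs, with SE from limma as bars, ordered by the difference between them. WARS1 and WARS2 at the top are 1.17 apart, and HARS1 and HARS2 at the bottom are 0.44 apart in the opposite order, which TARS1 and TARS2 and VARS1 and VARS2 above them also have, with overlapping arrays.

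Histidine was the pair separated in the opposite order relative to starvation. Threonine (TARS1 minus TARS2) had a change of -0.19 ± 0.10 with overlap relative to starvation and of -0.19 ± 0.08 without overlap relative to normal growth, and valine (VARS1 minus VARS2) had -0.04 and -0.15 with overlap in each. HARS1 minus HARS2 changed by -0.44 ± 0.05 with metformin relative to starvation and by -0.38 ± 0.05 relative to normal growth, without overlap in either case (exact permutation p = 0.1, the smallest possible). The genes stand head to head on chromosome 5 and are transcribed away from each other. Their annotated starts have 84 bases between them, printed here on the plus strand because the pair shares them as promoter sequence.
HARS1 and HARS2, between the starts (chr5:140691371-140691454, plus strand): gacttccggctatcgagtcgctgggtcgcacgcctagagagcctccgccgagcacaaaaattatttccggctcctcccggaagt
The promoter windows of these genes overlap by 184 bases, and neither window held the CARE or NRF1 letters.

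The cytosolic genes were also described by the CARE letters printed above. In metformin against starvation the 7 genes with the letters had a median of 0.32 (range -0.06 to 0.76), with 4 entirely higher and none entirely lower, against 15.7% and 15.2% of all genes. The 9 genes whose window lacked them had a median of -0.06 (range -0.22 to 0.67), with 3 entirely higher and 3 entirely lower. The order was not strict. TARS1 holds the letters and differed by -0.06, while WARS1, SARS1 and EPRS1 lack them in these windows and differed by 0.67, 0.40 and 0.25. YARS2, the mitochondrial gene with the letters, differed by -0.08. Genes of the 2 kinds were not tested against each other.

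**Figure D4:**
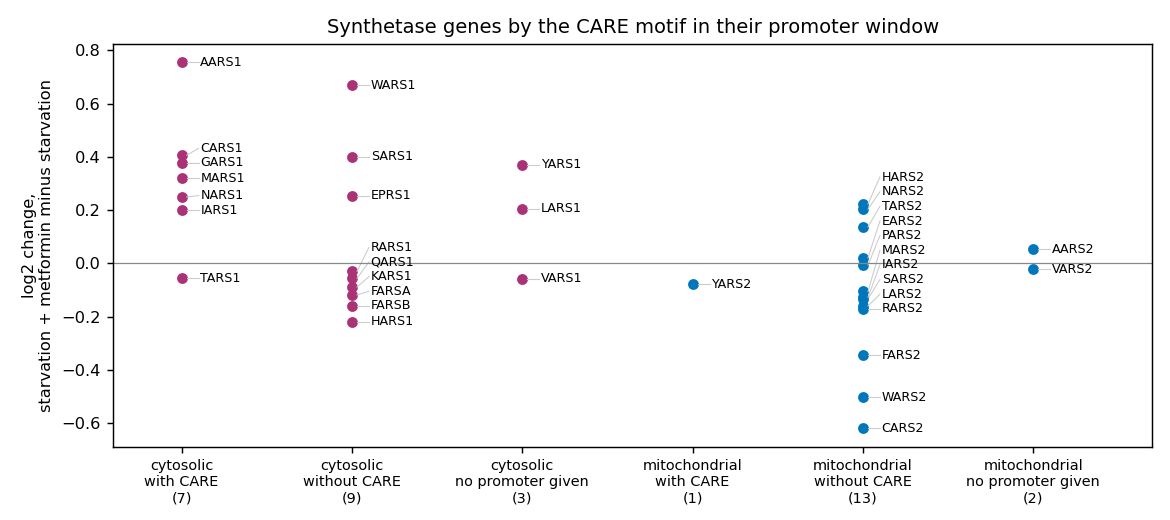
Log2 change in starvation with metformin against starvation for each synthetase gene, grouped by compartment and by whether the CARE core occurs in its promoter window, with the number of genes under each group. Of the 7 cytosolic genes with the motif, TARS1 is the one below 0, whereas 6 of the 9 without it are below 0 and WARS1 is the highest of those.

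Serum starvation against normal growth asks what the loss of serum, here together with its supplements, changes. No member was called by limma in either direction, where 0.0652% of all genes were called higher and 0.163% lower (0% and 0.038% with at least 2-fold). Before adjustment, no member was higher and 2 were lower at p below 0.05, which 4.12% and 5.77% of all genes were. The cytosolic genes ranged from -0.15 (VARS1) to 0.09 (WARS1) with a median of 0.03, which turned to -0.01 without starved replicate A, without starved replicate C or without normal growth replicate B. The mitochondrial genes ranged from -0.23 (SARS2) to 0.13 (RARS2) with a median of -0.03, and 13 of 16 were below 0, as were 50.4% of all genes (49.6% were above it). SARS2, the seryl enzyme, was at 7.61, 7.68 and 7.74 in normal growth and at 7.47, 7.44 and 7.44 in starvation. The groups did not overlap, and the difference of -0.23 ± 0.05 had an adjusted p of 0.229. MARS2, the methionyl enzyme, went from 7.31, 7.22 and 7.14 to values from 6.89 to 7.11, with a difference of -0.22 ± 0.08 and an adjusted p of 0.517. Entirely lower were 5 mitochondrial genes (AARS2, HARS2, LARS2, MARS2 and SARS2) and 2 cytosolic genes (FARSA and FARSB), and no member was entirely higher, against 9.62% and 6.86% of all genes.

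Starvation with metformin against normal growth combines both changes and uses arrays of the comparisons above, so it is not independent of them. Limma called AARS1 and MARS1 higher, FARSB and HARS1 lower among the 19 cytosolic genes, and CARS2, MARS2 and SARS2 lower among the 16 mitochondrial genes. Among all genes 6.15% were called higher and 6.36% lower, and 0.32% and 0.386% with at least 2-fold, which no member reached. The medians were 0.21 for the cytosolic, -0.08 for the mitochondrial and -0.02 for all genes. Entirely higher were 10 cytosolic and 2 mitochondrial genes, against 16.8% of all genes, and entirely lower were 5 and 7, against 19% of all genes. Below 0 were 8 of 19 cytosolic and 13 of 16 mitochondrial genes, against 55.6% of all genes (44.4% were above). With unadjusted p-values below 0.05 the cytosolic genes had 11 higher and 4 lower and the mitochondrial genes none higher and 6 lower, against 13.5% and 15% of all genes.

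AARS1 was higher by 0.80 ± 0.11 (1.74-fold, adjusted p = 0.0151 from limma) and MARS1 by 0.38 ± 0.08 (1.3-fold, adjusted p = 0.0471). CARS2 was lower, with a change of -0.62 ± 0.08 (1.54-fold, adjusted p = 0.0134), which is its change against starvation since its levels in starvation and in normal growth had the same mean of 10.59. SARS2 was at 7.34, 7.30 and 7.31 with metformin, below all starved arrays, which were below all normal growth arrays. Its change of -0.36 ± 0.05 passed at an adjusted p of 0.0164. MARS2, at 6.96, 6.91 and 6.82 with metformin, changed by -0.32 ± 0.07 and passed at 0.0396. FARSB stepped down in the same manner in its means, from 10.24 ± 0.06 in normal growth to 10.10 ± 0.08 in starvation and 9.94 ± 0.07 with metformin (mean ± SD, n = 3). It changed by -0.30 ± 0.06 in total, with an adjusted p of 0.0402, and HARS1 changed by -0.26 ± 0.05 with an adjusted p of 0.0351.

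Members near the threshold against normal growth were FARS2 (-0.32, adjusted p = 0.0528), WARS2 (-0.51, adjusted p = 0.0533) and WARS1 (0.76, adjusted p = 0.0589). EPRS1 (0.31), FARSA (-0.20) and LARS2 (-0.26) had adjusted p from limma of 0.0773, 0.0782 and 0.0811. VARS1, the valyl enzyme, differed by -0.21 with all metformin arrays below normal growth and an adjusted p of 0.133. Metformin replicate B had been singled out by its low values in the cytosolic genes, so higher estimates without it follow from that choice. Without metformin replicate B the cytosolic genes called higher were 7, namely AARS1, CARS1, GARS1, MARS1, SARS1, WARS1 and YARS1, the mitochondrial genes called lower were CARS2 and SARS2, and the calls of FARSB, HARS1 and MARS2 were lost. Among all genes, 774 were then called higher and 847 lower, against 1133 and 1172 with no array left out. The counts were 552 and 662 without metformin replicate A, and 1294 and 1246 without replicate C. Without metformin replicate A the calls of MARS1, HARS1 and MARS2 were lost, and without replicate C those of MARS1, FARSB, HARS1 and MARS2 were lost and FARSA, FARS2 and WARS2 were called lower. Without any single normal growth array no member was called.

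Genes that work with the synthetases were read from fixed lists in the same fits. Of 6 genes listed as cytosolic elongation factors, 1, EEF1D, was called higher with metformin relative to starvation and none lower, against 3.14% and 2.89% of all genes. EEF1D went from 9.02, 9.11 and 9.11 to 9.56, 9.57 and 9.49, a rise by 0.46 ± 0.06 (adjusted p = 0.0199, limma), and replicate B was the highest metformin array. Relative to normal growth 2 of the 6 were called higher, against 6.15% of all genes. These were EEF1D, by 0.47 (adjusted p = 0.00991, limma), and EEF2, by 0.28 (adjusted p = 0.047). Of 19 mitochondrial translation factors and tRNA enzymes, none was called higher and 2 fell relative to starvation, against 3.14% and 2.89% of all genes. The median of the 19 was 0.01. The 2 that fell were MRRF, the ribosome recycling factor of mitochondria, with a change of -0.47 ± 0.07 (adjusted p = 0.0308), and TSFM, an elongation factor of mitochondria, with -0.40 ± 0.07 (adjusted p = 0.0364). PUS1, which makes pseudouridine in tRNA, was the third called lower relative to normal growth, at -0.30 (adjusted p = 0.0376), where 6.36% of all genes were called lower. MTFMT, which formylates the initiator methionyl-tRNA of mitochondria, differed by 0.33 from starvation without passing (adjusted p = 0.0795). Of 5 measured genes of tRNA editing, selenocysteine and proofreading, SEPSECS, which makes selenocysteinyl-tRNA, was higher than in normal growth by 0.42 (adjusted p = 0.0346). It was the 1 gene of this list called there, where 6.15% of all genes were called higher.

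The amino acid response genes, 20 targets or regulators in the ATF4 pathway, had a median change of 0.44 with metformin relative to starvation. NUPR1, ASNS and PSAT1 rose and none fell, where 3.14% of all genes were called higher, and 12 of 20 lay entirely above starvation, against 15.7% of all genes. ASNS, asparagine synthetase, was at 8.14, 8.20 and 8.32 in starvation and at 9.40, 8.81 and 9.41 with metformin, a rise by 0.98 ± 0.17 (adjusted p = 0.0398, limma). TRIB3 and DDIT3, a pseudokinase and a transcription factor of this response, were also entirely higher, with adjusted p of 0.0533 and 0.055. The metformin arrays of DDIT3 were at 10.80, 9.70 and 10.75. Replicate B was thus the lowest of these, as it was for 19 of the 20 genes with metformin, against 7 of 20 in normal growth and 10 of 20 in starvation. The medians over the starved mean were 0.65, 0.14 and 0.59 for replicates A, B and C. Replicate B also lay nearest to starvation in the adrenal cortex markers (-0.32, -0.05 and -0.20), whereas A did in the mitochondrial synthetases (-0.04, -0.08 and -0.13). ATF4 itself differed by 0.11 from starvation with overlapping groups (adjusted p = 0.708, limma). A link between this list and the synthetases was not tested. The CARE letters were found in 5 of the 18 genes of this list with a window (27.8%). Relative to normal growth 8 of the 20 rose and 1, VLDLR, fell, against 6.15% and 6.36% of all genes, and in starvation against normal growth none passed, with a median of 0.09.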

How the data were processed

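Gene expression was measured in 9 arrays of H295R cells (3 per condition, GeneChip Human Gene 1.0 ST). The authors deposited log2 signals per probe set, made by RMA, which corrects background, quantile-normalizes and summarises probes. Affymetrix Expression Console, RMA and limma are the tools in the processing notes of the submitters, with no version given in the sources used here. The method assumes like signal distributions on all arrays, so a shift shared by most genes would be removed. The methods describe 3 independent experiments, and whether the replicate letters mark the same experiment is not stated.

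The table held 33297 probe sets, of which 19460 had 1 gene symbol, 1754 several and 12083 none in the platform annotation. Symbols were updated through Entrez identifiers, 19429 of which matched RefSeq. Each gene is its brightest single-symbol probe set over all arrays, and 2 members had 2 probe sets. Each comparison was fitted on its 6 arrays in limma 3.58.1 (R 4.3.3, lmFit and eBayes) on the deposited log2 values, with Benjamini-Hochberg adjustment over all probe sets and a threshold of 0.05. Groups were called apart, or entirely higher or lower, where no array of one overlapped the other. Changes are log2 estimates ± SE. Paired differences were tested by exact two-sided permutation. The fit was checked on simulated data. Identical values on 2 arrays of a group occurred for CARS1, KARS1, QARS1, YARS1, AARS2, LARS2, TARS2 and VARS2, which lowers their apparent spread.

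The members and gene lists were chosen with earlier results of these data known, so counts over them are descriptions. Named with values were members called in a comparison, the 6 with the lowest p in each, members of the pairs described, other members that lay apart or near the threshold (added after their values were seen), and up to 4 genes with the lowest p of each other list, with DDIT3 and TRIB3 beside them. Alternatives comprised a fit of all 9 arrays, other scaling, normalization, filters, probe set rules and tests, a replicate block, array weights and leaving out each array.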

Additional observations from a re-analysis of the deposited data

How the results depend on the processing

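No member was called in starvation against normal growth under any of the 16 alternatives run, and no called change of a member turned its direction. The cytosolic median there, 0.03, was not stable in sign and lay between -0.011 and 0.044 when single arrays were left out. The mitochondrial median there was -0.03 and lay between -0.057 and -0.031 when single arrays were left out. With metformin against starvation, 1 cytosolic gene was called higher, none lower, and 1 mitochondrial gene lower. A fit of all 9 arrays gave 4, 1 and 3. The trend and robust options gave 3 cytosolic genes higher and 1 lower. Leaving out dim probe sets gave 1 cytosolic and 2 mitochondrial genes lower, as did array weights. Quantile normalization gave 3 mitochondrial genes lower, and single-gene probe sets or their means gave 2. The methods' t-test gave 0 for each, with an adjusted p of 0.0824 for AARS1 and 0.0687 for CARS2. Leaving out single arrays gave 0 to 5 cytosolic genes higher and 0 to 1 mitochondrial genes lower. With metformin against normal growth, the counts were 2 cytosolic higher, 2 cytosolic lower and 3 mitochondrial lower. The fit of all 9 arrays, the filter on dim probe sets, single-gene probe sets and their means each gave 4 higher and 6 mitochondrial lower. Each of them also called the cytosolic genes FARSA, FARSB and HARS1 lower. The trend and robust options gave 4 and 5, array weights 1 and 5, a common median 1 higher, and quantile normalization 6 mitochondrial lower. FARSA, FARSB and HARS1 were called lower with the trend and robust options and with array weights. With a common median and with quantile normalization FARSB and HARS1 were. The t-test gave 0 higher and 1 cytosolic lower. Leaving out single arrays gave 0 to 7 higher, 0 to 1 cytosolic lower and 0 to 4 mitochondrial lower.

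With the replicate block, limma called 0 genes of any kind in all 3 comparisons, so the members called were 0 as well, while the estimates were the same. The adjusted p for metformin against starvation was then 0.116 for AARS1 and 0.126 for CARS2. Same-letter arrays had correlations of deviations of 0.09, 0.13 and 0.02 for starvation against normal growth, 0.29, -0.14 and -0.25 for metformin against starvation, and -0.09, 0.01 and -0.16 for metformin against normal growth. They did not exceed 0.1 for all letters in any comparison, so no pairing was assumed, although replicate B was the lowest array for 16, 16 and 15 of the 19 cytosolic genes in normal growth, starvation and metformin. Different letters gave -0.11 to 0.04 in starvation against normal growth and -0.38 to 0.44 in metformin against starvation. These values do not settle whether the letters pair the arrays. Over all genes, the calls for metformin against starvation were 578 higher and 532 lower, 1312 and 1192 with all 9 arrays, 1014 and 927 over single-gene probe sets, 226 and 264 with a common median, and 244 and 264 by the t-test. Against normal growth, metformin gave 1133 and 1172, 1542 and 1676 with all 9 arrays, and 1636 and 1735 over single-gene probe sets. A common median gave 840 and 1137 there, and the t-test 523 and 608. With 3 arrays per group, the smallest change of a member that passed was -0.26 (HARS1 against normal growth), and a missed threshold does not show that a gene stayed the same.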
